A study of Drosophila melanogaster with 6 samples.

Results

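The aspartate and glutamate tRNAs of Drosophila were followed through a pull-down of Strep-tagged Asterix from OSS cells. Members were the cytosolic tRNA genes annotated as tRNA-Asp or tRNA-Glu, 34 of the 291 tRNA genes and of the 123041 annotated features in the count tables. They comprised 14 tRNA-Asp genes with the anticodon GTC, 14 tRNA-Glu genes with CTC and 6 tRNA-Glu genes with TTC. The 34 had reads in at least 1 library, and 33 passed the filter on low counts. The gene that did not pass, tRNA-Glu-CTC-6-1, is annotated as a pseudogene in RefSeq, and 0.167 of a read was assigned to it in a single library.

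OSS is a line of ovarian somatic sheath cells. In each of the 6 libraries the cells had been transfected with a plasmid in which the act5c promoter drives Asterix, or Gtsf1, fused at its C terminus to TEV and Strep tags, and were taken 72 hours later, so tagged protein was supplied on top of the cells' own. They fell into 4 groups: crosslinked input and crosslinked IP with 2 libraries each, irradiated at 254 nm with 400 mJ, and non-crosslinked input and non-crosslinked IP with 1 library each, which have no replicate check. IP is used here for the RNA recovered on Strep-binding magnetic beads and input for the lysate RNA made beside it, after RNase I treatment in both. No library here came from cells without the tagged protein. The labels do not say whether libraries of a group came from separate cultures, so p-values measure only the spread between these libraries.

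A tRNA carries 1 amino acid to the ribosome and pairs with its codon through the anticodon. tRNA-Asp-GTC reads both aspartate codons, and its wobble base is exchanged for queuosine. tRNA-Glu-CTC reads the codon GAG, and tRNA-Glu-TTC, whose wobble uridine is modified through the Elongator complex, reads GAA. Mt2, the fly's Dnmt2, methylates a cytosine in the anticodon loop of tRNA-Asp. Asterix is a small protein with CHHC zinc fingers that works with Piwi in silencing transposons in the nucleus.

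Annotated reads ranged from 12391586 to 13658478 in the inputs and from 2018241 to 2921685 in the IP libraries. tRNA reads ranged from 23649 to 65149 in the inputs and from 40869 to 102189 in the IP libraries. Ribosomal RNA took 85.6% to 87.0% of annotated reads in the inputs and 60.1% to 69.5% in the IP libraries, and reads outside any annotation were 2.15% to 3.23% against 7.87% to 13.6% of each library, so both moved with the pull-down. With rRNA left out of the library sizes the 3 anticodons described below stood at 1.38, 1.61 and 3.48 (log2, crosslinked IP over input, edgeR, each past the threshold), and with unannotated reads included the log2 ratios of mean levels were 2.42, 2.65 and 4.52, where annotated reads alone gave 2.52, 2.75 and 4.62. The 7 genes checked for somatic ovary cells summed to between 2632 and 3751 reads in an input. The highest was tj, a transcription factor of somatic gonad cells, at 1503 to 2097 reads, and the lowest was vret, at 4 to 23. Fas3 had 44 to 54 reads. The 7 germline genes summed to between 34.0 and 63.5 reads, nearly all from krimp at 31 to 60 reads, and the other 6 had 3 reads or fewer in every input; osk and bam had 0.

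All 34 genes matched an entry of RefSeq's Release 6 annotation by name, and the 33 tested genes are each annotated as 72 bases long. The tRNA-Asp genes lie on chromosome arms 2L (10 genes), 3R (3 genes) and 3L (1 gene). Of the tRNA-Glu-CTC genes 10 lie on 3L, 3 on 2R and 1, the pseudogene, on X, and all 6 tRNA-Glu-TTC genes lie on 2R. The 9 genes of the group numbered Glu-CTC-3 form a cluster on 3L from 1379934 to 1401852, a span of 21919 bases. On 2R, tRNA-Glu-CTC-1-1 (16219638 to 16219709) lies between tRNA-Glu-TTC-1-1 (16219374 to 16219445) and tRNA-Glu-TTC-1-2 (16220052 to 16220123), so genes of both glutamate anticodons share a locus.

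Names of tRNA genes give the anticodon, then a number for the sequence and a number for the gene copy. Copies that share the first number had nearly equal values in every library, because a read that fits several genes is divided between them. Leaving out the copies described below, copies stood at 98.0% to 101.0% of their group's median in Asp-GTC-1 (11 copies), 98.3% to 101.6% in Glu-CTC-3 (9 copies), 97.6% to 102.6% in Glu-CTC-2 (3 copies) and 97.6% to 103.1% in Glu-TTC-1 (5 copies). Copies are therefore not independent measurements, and levels below are sums by anticodon or by numbered group. The tRNA-Asp sum was a whole number in all 6 libraries to within 1e-06 of a read, whereas the sums of tRNA-Glu-CTC and tRNA-Glu-TTC were not whole in any of them. The combined glutamate sum was not whole in 5 of 6 libraries, nor was the sum of the remaining tRNAs in 5 of 6, while the total of all tRNA reads was whole in all 6. Some reads of glutamate tRNAs had therefore been divided with tRNAs of other isotypes, and how many were divided between the glutamate anticodons is unknown.

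tRNA-Asp-GTC had the highest level of the 45 tRNA anticodons in the crosslinked inputs and in the IP libraries. Without irradiation it stood at 3800 CPM (reads per 1000000 annotated reads) in input and 18259 CPM in IP. After irradiation it stood at 1086 and 993 CPM in input and at 7921 and 3989 CPM in IP. Each IP library was above each input, but the lower crosslinked IP library and the non-crosslinked input were close to each other. The crosslinked groups had means of 1039 ± 65.8 CPM (SD, n = 2) for input and 5955 ± 2781 CPM (SD, n = 2) for IP, so the IP libraries were the more spread.

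tRNA-Glu-CTC, the major glutamate tRNA in these libraries, went from 891 CPM in input to 16186 CPM in IP without irradiation, and from 506 and 452 CPM in input to 4125 and 2323 CPM in IP after it. tRNA-Glu-TTC went from 111 CPM in input to 3820 CPM in IP without irradiation, and from 51.6 and 60.4 CPM in input to 1784 and 970 CPM in IP after it. For both glutamate anticodons the IP and input libraries did not overlap, and the non-crosslinked IP was the highest of the 6. How many of all RNAs had each IP above each input, as tRNA-Asp-GTC also did, was not counted. With scaling by library size alone, 6481 of 8978 entries (features summed by gene, element or anticodon) had positive log2 fold changes in crosslinked IP. Means were 479 ± 38.6 and 3224 ± 1274 CPM for tRNA-Glu-CTC in crosslinked input and IP, and 56.0 ± 6.22 and 1377 ± 575 CPM for tRNA-Glu-TTC (SD, n = 2 each).

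**Figure D1:**
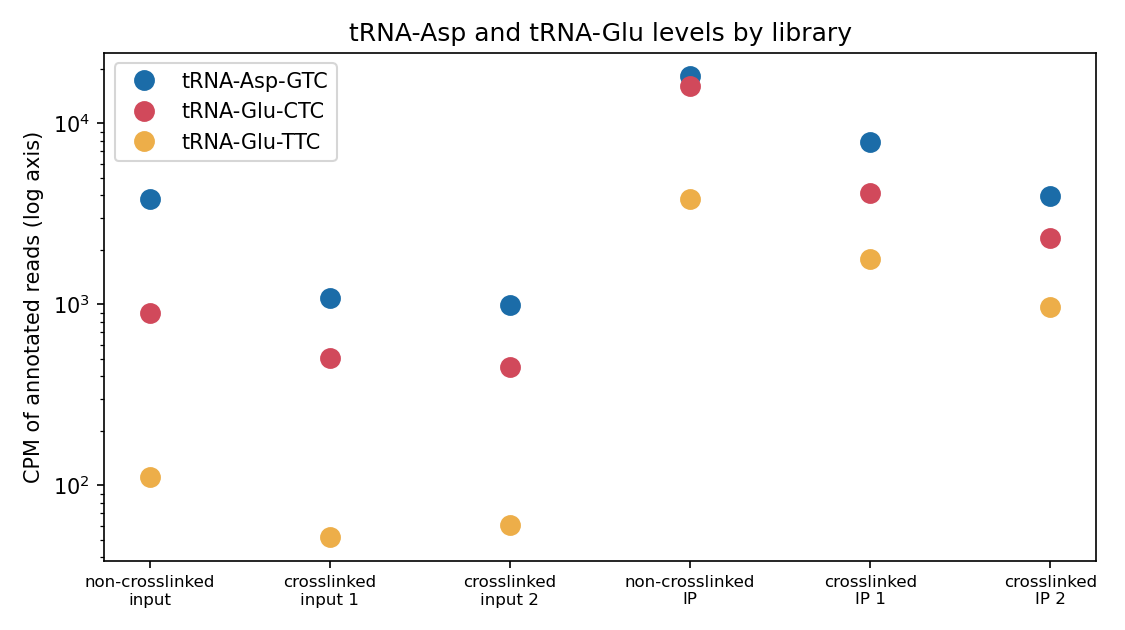
Level of the 3 anticodon sums in each library, in CPM of annotated reads on a log axis, 1 point per library. tRNA-Asp-GTC is the highest and tRNA-Glu-TTC the lowest of the 3 in every library, and the non-crosslinked IP, with 18259, 16186 and 3820 CPM, is the highest library for each.

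The first comparison asks which of these tRNAs were recovered with crosslinked, tagged Asterix above their level in the lysate. All 3 anticodons were higher in crosslinked IP than in crosslinked input, with log2 fold changes of 1.62 (SE 0.34, adjusted p = 0.000624) for tRNA-Asp-GTC, 1.85 (SE 0.32, adjusted p = 8.88e-05) for tRNA-Glu-CTC and 3.74 (SE 0.32, adjusted p = 3.67e-08) for tRNA-Glu-TTC, by the quasi-likelihood test of edgeR, adjusted after Benjamini-Hochberg over 8978 entries, 2 libraries against 2. Of all entries 31.3% were higher at the same threshold of 0.05, so such a call was common among the RNAs measured. In plain CPM the mean IP level was 5.73, 6.73 and 24.6 times the mean input level. The fitted changes are smaller because edgeR's TMM scaling centres them near the median of all entries, at -0.07, and that median was 0.81 with scaling by library size alone, where the 3 anticodons had 2.52, 2.75 and 4.62.

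Without crosslinked IP replicate 1 the log2 fold change of tRNA-Asp-GTC was 1.26 (adjusted p = 0.0385) with the filter applied anew and 1.04 (adjusted p = 0.0752, edgeR) on the entries of the full fit. Against a control made of the inputs and the non-crosslinked IP, none of the 3 passed, with values of -0.29 for tRNA-Asp-GTC (adjusted p = 0.943), -0.54 for tRNA-Glu-CTC (adjusted p = 0.923) and 0.47 for tRNA-Glu-TTC (adjusted p = 0.936, edgeR). Under that control 1 of 10189 entries was higher and 0 lower, so the loss of adjusted calls is not particular to these tRNAs. At an unadjusted p under 0.05, 934 entries passed in either direction (edgeR). The values of tRNA-Asp-GTC and tRNA-Glu-CTC also changed sign, and the non-crosslinked IP was the highest library for both.

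At the level of single genes all 33 tested members were higher in crosslinked IP, 14 for aspartate and 19 for glutamate, with adjusted p of at most 0.00396 (edgeR), beside 29.6% of the 13471 features tested (25.8% were lower). With the non-crosslinked IP added to the control 0 passed, and 0 had an unadjusted p under 0.05 (edgeR), beside 2 of 16030 features higher under that control. Log2 fold changes ran from 1.67 to 4.43 with a median of 1.94, where the median of all features was -0.03. Because the copies share reads, these are not 33 independent measurements.

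The other 42 anticodons were also all higher in crosslinked IP, with a median log2 fold change of 4.02. Among the 45 anticodons ordered from the lowest, tRNA-Asp-GTC was number 2 and tRNA-Glu-CTC number 4, while tRNA-Glu-TTC was number 19, near the middle. The lowest was the selenocysteine tRNA SeC-TCA at 0.65 and the highest was His-GTG at 7.36. tRNA-Asp-GTC and tRNA-Glu-CTC were thus among the anticodons with the smallest increase, and tRNA-Glu-TTC had an increase more like that of other tRNAs. Whether the increase goes with the level in the lysate was not tested, and that level is also the denominator of the change.

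**Figure D2:**
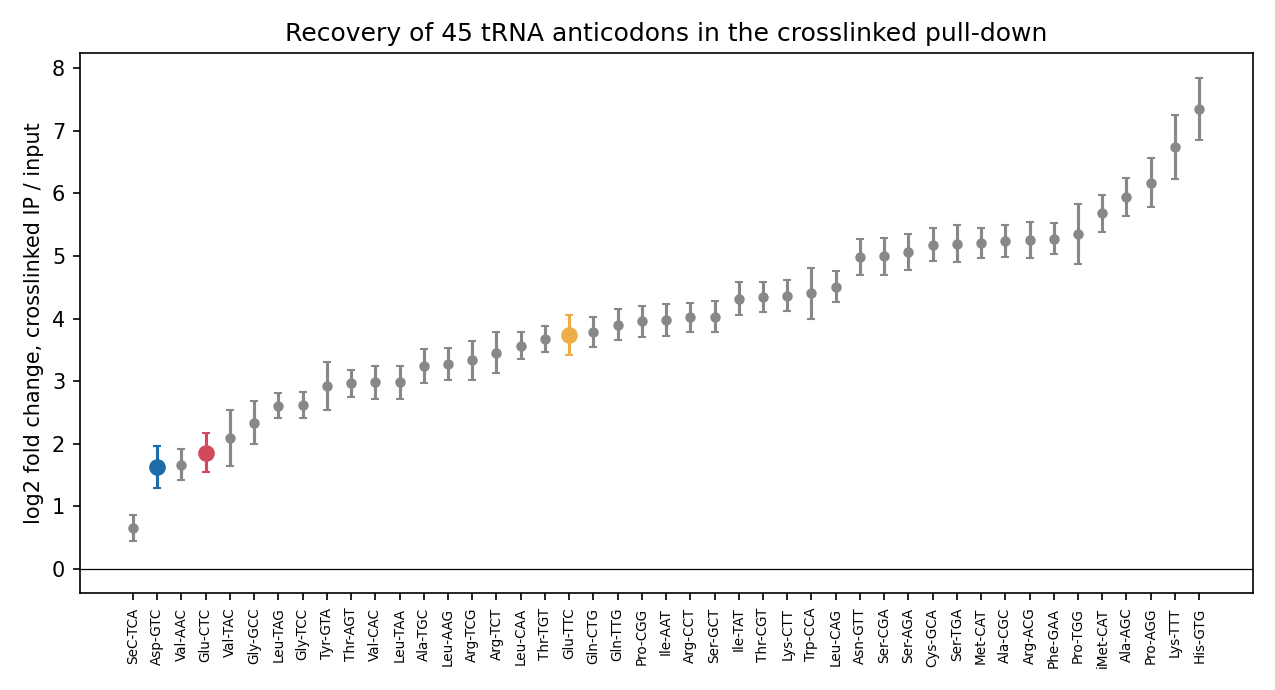
Log2 fold change of crosslinked IP over crosslinked input for each of the 45 tRNA anticodons, sorted, with bars for the standard error of edgeR's fit (2 libraries against 2). Coloured points mark tRNA-Asp-GTC (1.62, blue), tRNA-Glu-CTC (1.85, red) and tRNA-Glu-TTC (3.74, yellow); the first 2 lie at the low end.

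A fit scaled to the tRNA reads of all other isotypes tested that difference from the rest of the tRNA pool directly. Relative to other tRNAs, tRNA-Asp-GTC was lower in crosslinked IP by a log2 value of -2.34 (SE 0.36, adjusted p = 3.9e-09) and tRNA-Glu-CTC by -2.09 (SE 0.34, adjusted p = 1.28e-08), by edgeR's quasi-likelihood test, n = 2 against 2. tRNA-Glu-TTC did not pass, at -0.22 (SE 0.29, adjusted p = 0.458, edgeR). On this scale 87.8% of all entries were lower and 3.29% higher, since most RNAs increased less than tRNAs did. Scaled to all tRNA reads, aspartate and glutamate included, the same 3 values were -0.82 (adjusted p = 0.108), -0.57 (adjusted p = 0.261) and 1.29 (adjusted p = 0.00898, edgeR), so the sign for tRNA-Glu-TTC and both calls for the others turned on whether the abundant tRNAs were part of the scale. Without crosslinked IP replicate 1, tRNA-Glu-TTC was lower than the other tRNAs at -0.49 (adjusted p = 0.0358), and without crosslinked IP replicate 2 it was at 0.00484 (adjusted p = 0.985, edgeR).

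Shares of tRNA reads need no scaling between libraries. Aspartate and glutamate tRNAs together made up 92.1% of tRNA reads in input (95% Wilson interval 91.9% to 92.3%, counting error only) and 75.6% in IP (75.3% to 75.8%) without irradiation. After irradiation they made up 86.1% and 84.0% in input and 61.2% and 52.1% in IP. Input and IP libraries did not overlap. The share of all other tRNAs is the remainder, so it moved the opposite way by construction. How many single anticodons had shares without overlap was not counted. The mean of the crosslinked groups was 85.1% ± 1.52 (SD, n = 2) in input and 56.6% ± 6.47 (SD, n = 2) in IP, and the exact two-sided permutation test gave p = 0.333, the smallest that 2 against 2 libraries allow.

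tRNA-Asp-GTC alone held 72.9% of tRNA reads in input and 36.1% in IP without irradiation, and 56.9% and 55.4% in input and 35.1% and 28.5% in IP after it. tRNA-Glu-CTC held 17.1% in input and 32.0% in IP without irradiation, and 26.5% and 25.2% in input and 18.3% and 16.6% in IP after it. Its share was thus lower in crosslinked IP than in crosslinked input but higher in non-crosslinked IP than in non-crosslinked input. tRNA-Glu-TTC held 2.14% in input and 7.54% in IP without irradiation, and 2.70% and 3.37% in input and 7.89% and 6.93% in IP after it. Its share was larger in each IP library than in any input, but this is not particular to it. Ala-AGC, for example, held 0.11%, 0.16% and 0.35% in the inputs and 0.96%, 2.34% and 3.66% in the IP libraries. How many of the 45 anticodons did so was not counted. Shares have a fixed total, so a lower share of the abundant tRNA-Asp-GTC goes with higher shares elsewhere.

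**Figure D3:**
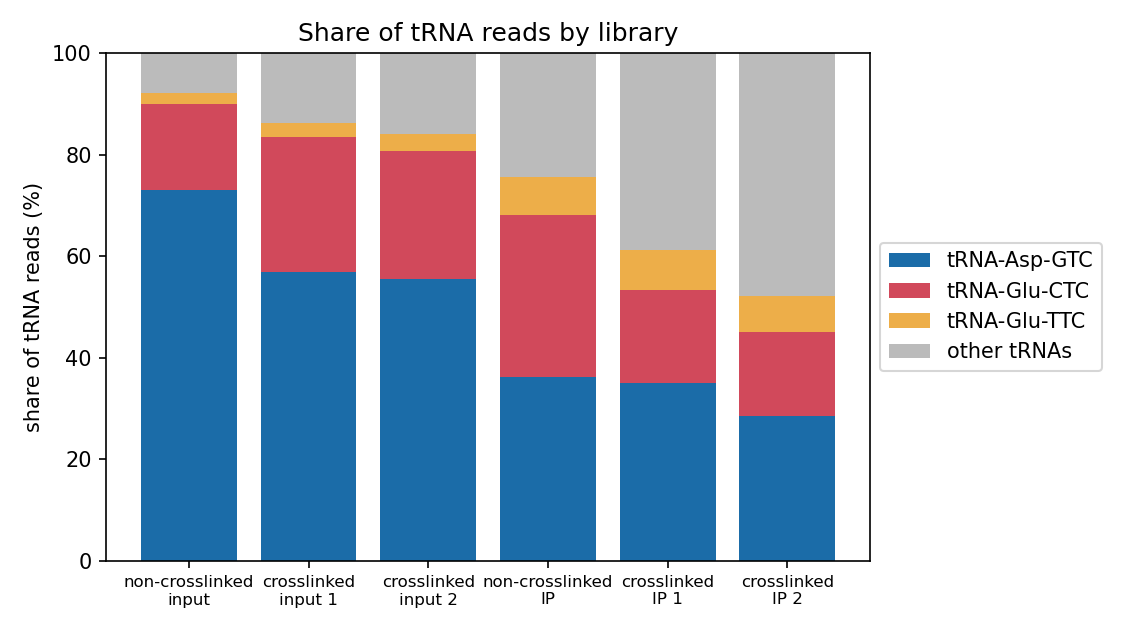
Share of all tRNA reads (%) taken by tRNA-Asp-GTC, tRNA-Glu-CTC, tRNA-Glu-TTC and all other tRNAs in each library, 1 stacked bar per library. Aspartate and glutamate tRNAs go from 92.1% in the non-crosslinked input to 52.1% in the second crosslinked IP library.

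The ratio of aspartate to glutamate reads does not depend on the scaling of a library. On the log2 scale it was 1.92 in input and -0.13 in IP without irradiation, and 0.96 and 0.95 in input and 0.42 and 0.28 in IP after it. Aspartate reads outnumbered glutamate reads in each library other than the non-crosslinked IP. IP was lower than input by a log2 value of -0.61 in the crosslinked libraries (exact two-sided permutation p = 0.333, the smallest possible) and by -2.05 in the non-crosslinked pair. Against tRNA-Glu-CTC alone the crosslinked difference was -0.26 and against tRNA-Glu-TTC alone -2.12. Within glutamate, tRNA-Glu-CTC over tRNA-Glu-TTC was lower in crosslinked IP than in crosslinked input by a log2 value of -1.87 (exact permutation p = 0.333).

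Within tRNA-Asp, numbered groups with few reads had larger increases than the main one. The 12 genes of Asp-GTC-1 summed to 3787 CPM in input and 18001 CPM in IP without irradiation, and to 1081 and 989 CPM in input and 7768 and 3927 CPM in IP after it. Asp-GTC-2, a single gene on 2L (5240766 to 5240837), had 3.38 CPM in input and 124 CPM in IP without irradiation, and 1.99 and 1.62 CPM in input and 77.5 and 32.7 CPM in IP after it. Asp-GTC-3, a single gene on 3R (24915060 to 24915131), had 10.1 and 135 CPM without irradiation, and 2.54 and 2.75 CPM in input and 76.1 and 30.0 CPM in IP after it.

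Both single genes were at a small fraction of the level of the main group, and in both every IP library was above every input. As above, how many of all RNAs behaved so was not counted. Their log2 fold changes in crosslinked IP over input were 3.99 (SE 0.35, adjusted p = 2.69e-08) for Asp-GTC-2 and 3.39 (SE 0.33, adjusted p = 1.30e-07) for Asp-GTC-3, against 1.59 (SE 0.34, adjusted p = 0.000607) for Asp-GTC-1, by edgeR on the table of numbered groups, in which 31.3% of 9008 entries were higher and 28.1% lower. The difference between the groups was not tested. The smaller groups had 22.1 to 125.9 reads in an input, and how many of those were divided with Asp-GTC-1 is unknown.

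The glutamate groups with CTC did not spread in this way in the crosslinked libraries. Glu-CTC-1, Glu-CTC-2 and Glu-CTC-3 had log2 fold changes of 1.93 (SE 0.28), 1.82 (SE 0.30) and 1.84 (SE 0.30), each past the threshold (edgeR), and these lie within 1 SE of each other. How many reads were divided between these groups is unknown. Without irradiation their IP was 12.7, 21.0 and 18.0 times the input in plain CPM, in the same order. Their levels differed. In crosslinked input, Glu-CTC-3 stood at 295 ± 12.6 CPM, Glu-CTC-2 at 147 ± 21.8 CPM and Glu-CTC-1 at 37.1 ± 4.24 CPM (SD, n = 2). In crosslinked IP they stood at 1972 ± 763, 986 ± 391 and 266 ± 120 CPM (SD, n = 2), in the same order. Glu-TTC-1, the only group with TTC, had 3.72 (SE 0.31, adjusted p = 1.76e-08, edgeR).

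**Figure D4:**
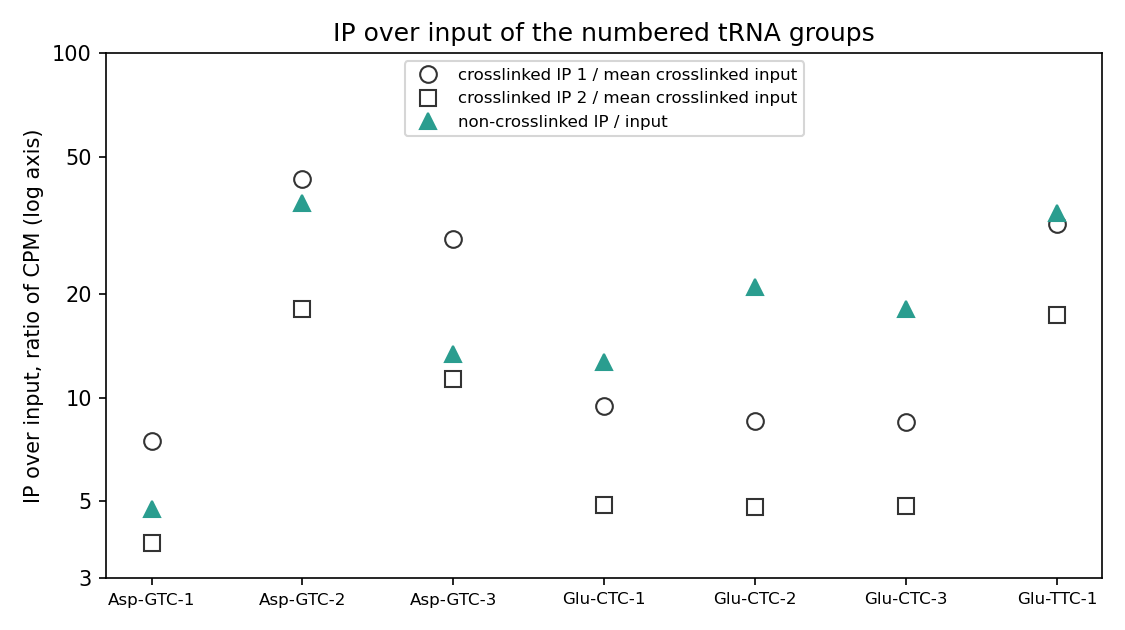
IP over input, as a ratio of CPM on a log axis, for the 7 numbered groups with reads in every library. Circles and squares are crosslinked IP replicates 1 and 2 over the mean of both crosslinked inputs, and triangles are the non-crosslinked IP over its input; in the groups of Glu-CTC the triangles (12.7, 21.0 and 18.0) lie above both crosslinked values.

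The copies tRNA-Asp-GTC-1-4 and tRNA-Glu-TTC-1-6 stood over 10% from the median of their group. tRNA-Asp-GTC-1-4, on 2L from 8541552 to 8541623, had 82.3%, 86.6% and 87.5% of its group's median in the 3 inputs, but 99.96% to 100.1% in the IP libraries. It was lower than its fellow copies in inputs alone, and its log2 fold change of 1.89 (SE 0.34, adjusted p = 0.00213, edgeR) compares with 1.69 for tRNA-Asp-GTC-1-7, the copy with the highest mean level at 499 CPM over the 6 libraries. The lowest change among the aspartate copies was 1.67 in tRNA-Asp-GTC-1-8 and the highest was 4.10 in tRNA-Asp-GTC-2-1, which also had the lowest mean level.

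tRNA-Glu-TTC-1-6, on 2R from 19727981 to 19728052, had 16.7% of its group's median in input and 85.0% in IP without irradiation, and 46.6% and 50.4% in input and 82.4% and 69.4% in IP after it. It was below the other 5 copies in each library, and furthest below in the inputs. Its log2 fold change was the largest of the 33 members at 4.43 (SE 0.39, adjusted p = 8.16e-05, edgeR), beside 3.74 in tRNA-Glu-TTC-1-1, the smallest of this anticodon, and 3.78 in tRNA-Glu-TTC-1-2, the copy with the highest mean level. Among the CTC copies the range was narrow, from 1.91 in tRNA-Glu-CTC-2-1 to 2.04 in tRNA-Glu-CTC-1-1, and mean levels ran from 273 CPM in tRNA-Glu-CTC-3-6 to 425 CPM in tRNA-Glu-CTC-2-3.

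The second comparison sets crosslinked against non-crosslinked libraries, which measure what the same beads recover without irradiation. In plain CPM the non-crosslinked IP was 3.07 times the mean crosslinked IP level for tRNA-Asp-GTC, 5.02 times for tRNA-Glu-CTC and 2.77 times for tRNA-Glu-TTC. All 3 were lower in crosslinked than in non-crosslinked IP, with log2 fold changes of -1.49 (SE 0.37, adjusted p = 0.00124), -2.20 (SE 0.36, adjusted p = 5.52e-08) and -1.34 (SE 0.32, adjusted p = 0.000627), by edgeR on all 6 libraries, where the single non-crosslinked libraries were assumed to vary like the crosslinked ones. Of 11820 entries 8.3% were lower and 5.14% higher.

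Of the 45 anticodons tRNA-Glu-CTC fell furthest, while of the other 42 anticodons 19 were lower and 5 higher, with a median of -0.52. The calls for tRNA-Asp-GTC and tRNA-Glu-TTC were lost when scaled to other tRNA reads, at -0.98 (adjusted p = 0.131) and -0.83 (adjusted p = 0.119), and without crosslinked IP replicate 2, at -1.35 (adjusted p = 0.273) and -1.25 (adjusted p = 0.0786). They were also lost without crosslinked input replicate 2, at -1.41 (adjusted p = 0.0901) and -1.26 (adjusted p = 0.0986, edgeR), where 61 of 7400 entries were lower.

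The inputs differed as well. tRNA-Asp-GTC was lower in crosslinked than in non-crosslinked input by a log2 value of -1.99 (SE 0.37, adjusted p = 4.83e-06), tRNA-Glu-TTC by -1.12 (SE 0.33, adjusted p = 0.00827) and tRNA-Glu-CTC by -1.01 (SE 0.36, adjusted p = 0.0427, edgeR), beside 7.16% of entries lower and 6.07% higher. In plain CPM the non-crosslinked input was 3.66, 1.99 and 1.86 times the crosslinked mean for the 3 in that order. Among the other 42 anticodons 8 were lower and 3 higher, with a median of -0.22. Without crosslinked input replicate 2 none of the 3 passed, at -1.71 (adjusted p = 0.137), -1.01 (adjusted p = 0.322) and -0.72 (adjusted p = 0.454, edgeR) for tRNA-Asp-GTC, tRNA-Glu-TTC and tRNA-Glu-CTC, but only 2 of all 7400 entries were lower in that fit, so this is not a result about these tRNAs. Scaled to other tRNA reads the glutamate calls were lost, at -0.42 for tRNA-Glu-TTC (adjusted p = 0.377) and -0.32 for tRNA-Glu-CTC (adjusted p = 0.571, edgeR). Without crosslinked input replicate 1 they were also lost, at -0.97 (adjusted p = 0.172) and -1.06 (adjusted p = 0.123, edgeR), where 41 of 7470 entries were lower. The call for tRNA-Glu-CTC was also lost without crosslinked IP replicate 1 (adjusted p = 0.171) or replicate 2 (adjusted p = 0.177, edgeR).

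Whether IP over input itself differed between crosslinked and non-crosslinked libraries was tested as a difference of differences. It was 0.50 (SE 0.55, adjusted p = 0.717) for tRNA-Asp-GTC, -1.19 (SE 0.53, adjusted p = 0.187) for tRNA-Glu-CTC and -0.22 (SE 0.48, adjusted p = 0.89) for tRNA-Glu-TTC, so none passed (edgeR), beside 4.42% of entries higher and 2.84% lower. In plain CPM the crosslinked IP replicates were 7.62 and 3.84 times the mean crosslinked input for tRNA-Asp-GTC, on both sides of the 4.80 times of the non-crosslinked pair. For tRNA-Glu-CTC they were 8.61 and 4.85 times against 18.2 times without crosslinking, and for tRNA-Glu-TTC 31.9 and 17.3 times against 34.3 times. With scaling by library size alone the difference for tRNA-Glu-CTC passed, at -1.43 (adjusted p = 0.00027, edgeR). In CPM, the single non-crosslinked IP library had each of these tRNAs at a higher level than both crosslinked IP libraries. Its input was also the higher one, and over input tRNA-Asp-GTC was higher in crosslinked IP replicate 1. RNA held by the beads cannot be told apart from RNA bound to the protein before irradiation.

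**Figure D5:**
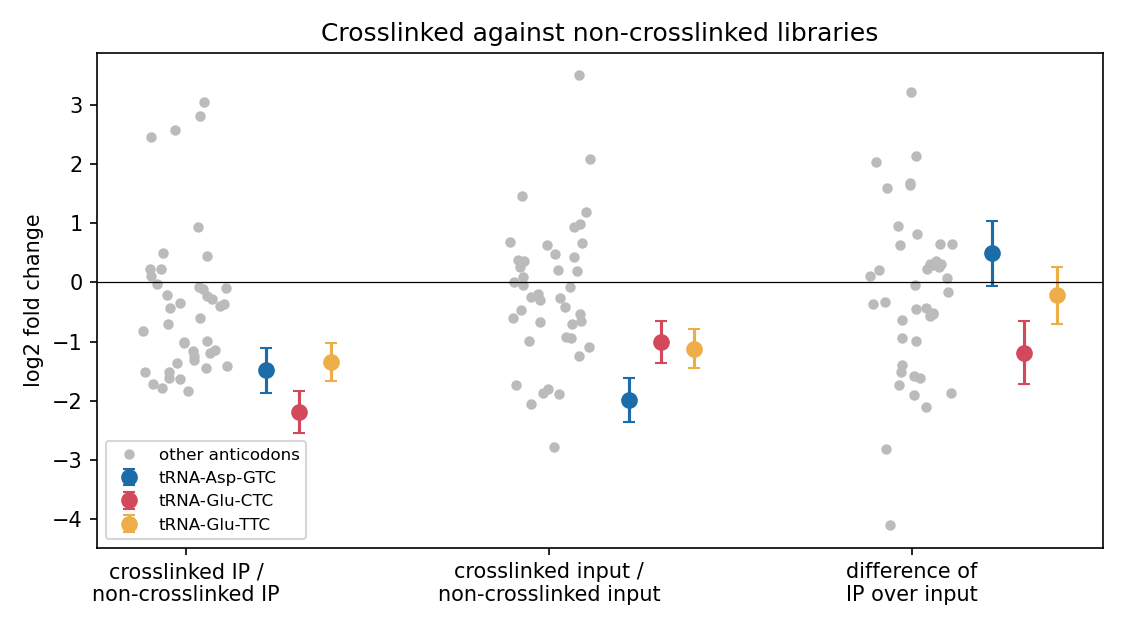
Log2 fold changes of crosslinked over non-crosslinked IP, of crosslinked over non-crosslinked input, and the difference of IP over input between crosslinked and non-crosslinked libraries, for the 3 anticodon sums with bars for the standard error of edgeR's fit and for the other 42 anticodons as grey points. tRNA-Glu-CTC, at -2.20, is the lowest of the 45 in the IP libraries, and tRNA-Asp-GTC, at -1.99, is the lowest of the 3 in the inputs.

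The tRNAs whose profile over the 6 libraries was most like that of the aspartate and glutamate anticodons were found by the root mean square distance between log2 CPM values, each centred on its own mean. For tRNA-Asp-GTC they were Val-AAC at 0.116 and Val-TAC at 0.263, followed by Glu-CTC at 0.570, where the median distance to other isotypes was 1.71. Val-AAC stood at 33.3 CPM in input and 191 CPM in IP without irradiation, and at 11.4 and 10.3 CPM in input and 83.2 and 45.9 CPM in IP after it. tRNA-Glu-CTC was closest to Gly-GCC (0.419), Gly-TCC (0.468) and Val-TAC (0.487), with a median of 1.34, and tRNA-Glu-TTC to Pro-CGG (0.167), Gln-TTG (0.229) and Arg-TCT (0.411), with a median of 0.881. Some of these neighbours had few reads. In the crosslinked inputs Val-TAC stood at 0.91 and 0.81 CPM and Arg-TCT at 0.48 and 1.10 CPM, so their distances are less certain than that of Val-AAC. The profiles share the libraries and their depth, so likeness is a description over 6 points.

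The mitochondrial aspartate and glutamate tRNAs, which are separate genes outside the members, had 2 to 20 reads in a library. The aspartate one was higher in crosslinked IP than in input, with a log2 fold change of 1.60 (SE 0.40, adjusted p = 0.0100), and the glutamate one did not pass, at 0.34 (SE 0.37, adjusted p = 0.498, edgeR).

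None of the tested transcripts of genes that charge, modify or process these tRNAs passed as higher in crosslinked IP. Of a list of 17 genes 16 were found, and 7 passed the filter on low counts through their exon entries. By edgeR or DESeq2 0 of the 7 were higher, also at an unadjusted p under 0.05. Of all 8978 entries 31.3% were higher by edgeR and 2007 by DESeq2. With only 7 genes, a count of 0 is not read as a result about them. By edgeR 3 were lower in crosslinked IP than in crosslinked input, beside 27.8% of entries. The median log2 fold change of the 7 was -1.04, against -0.07 for all entries. The IP libraries were the shallower, so reads are given with CPM. AspRS, the aspartyl-tRNA synthetase, had 61.0 and 59.2 reads (4.92 and 4.33 CPM) in the crosslinked inputs. In the crosslinked IP libraries it had 6 and 11.7 reads (2.72 and 3.99 CPM), a change of -1.28 (SE 0.36, adjusted p = 0.00569, edgeR). GluProRS, which charges glutamate and proline tRNAs, had 160 and 189 reads (12.9 and 13.8 CPM) in the crosslinked inputs. In the crosslinked IP libraries it had 25.2 and 21.7 reads (11.4 and 7.41 CPM), a change of -1.42 (SE 0.24, adjusted p = 8.2e-05, edgeR). La, which binds the ends of new tRNA transcripts, changed by -0.87 (SE 0.35, adjusted p = 0.0387, edgeR). In plain CPM its libraries overlapped, at 3.15 and 4.61 in crosslinked input and 3.62 and 4.19 in crosslinked IP.

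Elp3 (0.89) and Elp4, listed as CG6907 (-1.06), both of the Elongator complex, and the gene of the tRNA 3' end nuclease, listed as RNaseZ (-1.04), did not pass. Scaled by library size alone, 0 of the 7 genes were lower, also at an unadjusted p under 0.05 (edgeR), beside 494 of 8978 entries lower. Mt2 had 2 reads or fewer in each library and was not tested.

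In the authors' deposited table of ratios 23 of the 34 members are listed. In the authors' deposited table the 12 copies of Asp-GTC-1 had ratios of 7.46 to 8.51, Asp-GTC-2 had 30.6 and Asp-GTC-3 had 32.3, while the median was 3.44 over all listed features and 30.1 over listed tRNAs. In the authors' deposited table the 5 listed copies of Glu-TTC-1 had ratios of 27.5 to 28.5 and Glu-CTC-1 had 4.22, but the 3 listed copies of Glu-CTC-3 had 0.0696 to 0.0763. The formula of that ratio is not stated in the sources used here, and the low values of Glu-CTC-3 are not seen in its levels above, which were higher in each IP library than in any input.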

How the data were processed

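Per the labels' protocols, the 6 libraries are eCLIP inputs and IPs; the submitters' processing notes name bcl2fastq 2.19, STAR 2.5.2b, bedtools 2.29.0 and the builds dm6 and mm10, without roles. The authors deposited estimated counts per feature, with reads divided between features (35.5% to 49.5% of values above 0 are whole), RPM values scaled from them, and 1 table of ratios whose formula is not stated. Whether strand was used or duplicates were removed is not given in the sources used here. Unannotated reads were left out. No sequences are shown.

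Estimated counts were rounded and tested with edgeR 4.0.16 in R 4.3.3 (filterByExpr, TMM, quasi-likelihood F test, Benjamini-Hochberg over all entries, threshold 0.05), on single features and on features summed by gene, element or anticodon. Another fit used the tRNA reads of other isotypes as library size with no TMM factors, and a further fit held all 6 libraries in 4 groups. The SE is the log2 fold change over the square root of F. Alternatives were DESeq2 1.42.0, limma 3.58.1 on log2 RPM with pseudocounts of 1 and 0.1, other scalings, filters and controls, and each crosslinked library left out. Other steps used scipy 1.17.1, numpy 2.4.6, pandas 2.3.3 and matplotlib 3.10.9 in Python 3.11.15.

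Members, gene lists and tests were chosen with earlier results of these data known. Named are the anticodon sums, in each anticodon the copies with the highest and lowest mean level and change and copies over 10% from their group's median, tested genes of the list, of which 1 is counted but not reported here, and the 3 most similar anticodons.

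Same-numbered libraries' deviations from their group means correlated at r = 0.093 over 8978 entries, so the numbers were not taken as pairs. A count of 3 reads, the floor used, equals 0.220 to 0.242 CPM in inputs and 1.03 to 1.49 CPM in IP libraries.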

Additional observations from a re-analysis of the deposited data

How the results depend on the processing

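Of the 33 member calls none was lost under the other scalings, filters and tools or with a crosslinked library left out, except that with the non-crosslinked IP in the control 0 tRNA-Asp and 0 tRNA-Glu features were higher (2 of all features were, and 1389 at an unadjusted p under 0.05), and the anticodons stood at -0.29, -0.54 and 0.47, in the order Asp-GTC, Glu-CTC and Glu-TTC used throughout. The fit with the replicate number as a block gave 1.55, 1.81 and 3.67 for crosslinked IP over input, and -2.36, -2.10 and -0.24 relative to other tRNAs; it changed no call. Leaving out 1 library gave 1.04 to 2.28, 1.37 to 2.46 and 3.22 to 4.36. Relative to other tRNAs these ranges were -2.67 to -2.07, -2.33 to -1.89 and -0.49 to 0.00484, and with all tRNA reads as the scale the values were -0.82, -0.57 and 1.29. Crosslinked against non-crosslinked IP ran from -2.29 to -1.35, -2.90 to -2.12 and -2.07 to -1.25 with a library left out, and scaled to other tRNA reads Asp-GTC was at -0.98 and Glu-TTC at -0.83. For the inputs the ranges were -2.07 to -1.71, -1.09 to -0.72 and -1.20 to -0.97; Glu-CTC and Glu-TTC no longer passed when scaled to other tRNA reads, at -0.32 and -0.42, nor Glu-CTC with at least 10 counts in every library, at -0.84, and both also lost the call without crosslinked input replicate 1, Glu-CTC at -1.06 and Glu-TTC at -0.97. The difference of IP over input ran from -0.22 (without crosslinked IP replicate 1) to 0.71, -1.81 to -1.03 and -0.87 to -0.04, and by library size alone Glu-CTC passed at -1.43. As log2 ratios of mean levels the anticodons stood at 2.52, 2.75 and 4.62, at 1.38, 1.61 and 3.48 over annotated reads without rRNA and at -0.82, -0.57 and 1.29 over tRNA reads only, with 1.94 to 2.93, 2.28 to 3.11 and 4.12 to 4.99 when a library was left out. The aspartate over glutamate difference was -0.68 to -0.53 with a library left out, -0.26 over Glu-CTC alone, -2.12 over Glu-TTC alone and -2.05 in the non-crosslinked pair. Of the charging and modification genes 0 were lower by library size alone, where entries higher numbered 4148 and lower 494 against 2812 and 2499 with TMM, 0 with the non-crosslinked IP in the control, 1 of the 1 gene tested under the filter of 10 counts, and 2 to 3 with a library left out. Other causes of these changes were not tested. The numbered-group sums, the non-crosslinked ratio, the left-out fits on the same entries and TMM factors without tRNAs were chosen after seeing the data. With 2 libraries a group and 1 without crosslinking, exact tests cannot pass the threshold.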
